A study of Mus musculus with 6 samples.

Results

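Transcripts that belong to red cells were followed in the liver RNA of SIRT7 knockout mice (3 livers) and wild-type mice (3 livers), each measured on its own 1-colour Affymetrix expression array. The genes were chosen by name, with earlier results of these data known. They were Hba-a2 and Hbb-b2, which encode adult alpha- and beta-globin chains, Ahsp, the chaperone that holds free alpha-globin, Slc4a1, the band 3 anion exchanger of the red cell membrane, and Alas2, the erythroid form of the enzyme that opens haem synthesis. A gene counted as measured where a probe set carried its symbol and no other. This gave 4 of the 5 genes and 7 probe sets, out of 12393 genes and 22626 probe sets in all. No probe set with the single symbol Ahsp was named in the annotation used here, and Ahsp was not analysed here. A further 4 probe sets name several adult globin genes at once and are given apart from the single genes.

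The knockout livers came from mice lacking SIRT7, a nuclear NAD-dependent deacylase, and the controls carried the wild-type Sirt7 allele. The labels say that all mice were treated alike, and give no strain, age, sex, diet or deletion design, nor whether blood was flushed from the livers. Nor do they say that each liver of a group is from its own mouse. The p-values below therefore rest on sample-to-sample spread alone, part or all of which could be technical. Sirt7 itself had log2 values of 2.38, 3.11 and 2.86 in knockout livers, against 9.85, 9.80 and 9.57 in wild-type livers, a log2 difference of -6.96 (SE 0.23, limma adjusted p = 3.99e-06); where this probe set lies relative to the deletion is not given. The 6 hepatocyte markers with a probe set, among them albumin (Alb), lay between 10.53 and 13.97 on all 6 arrays. Pairwise correlations of the arrays across 8343 genes were 0.949 to 0.984, which is a description across genes and not across replicates.

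Red cells carry haemoglobin, a tetramer of alpha- and beta-globin chains, each holding a haem. Young red cells, the reticulocytes, have lost their nucleus but keep globin, Alas2 and band 3 mRNA for a short time after they enter the blood. The fetal liver makes red cells, whereas in adult mice the marrow and the spleen do so, and an adult liver holds circulating blood and clears old red cells through its macrophages. In bulk liver RNA, fewer red cells and less RNA per cell cannot be told apart.

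Adult globin genes come in copies, and some probe sets name several of them. The promoter windows below run from 250 bases before to 50 bases after the gene start, 5′ to 3′, from RefSeq on GRCm38.p6. They are shown as a description and do not bear on what a probe set measures. Whether the promoter letters relate to any difference across livers was not tested. Capitals mark matches on either strand to GATAA (the core that GATA factors bind), to CACCC (the core that erythroid KLF factors bind), to the CCAAT box and to the TATAA box.
Hba-a2 (chr11:32296242-32296541, + strand): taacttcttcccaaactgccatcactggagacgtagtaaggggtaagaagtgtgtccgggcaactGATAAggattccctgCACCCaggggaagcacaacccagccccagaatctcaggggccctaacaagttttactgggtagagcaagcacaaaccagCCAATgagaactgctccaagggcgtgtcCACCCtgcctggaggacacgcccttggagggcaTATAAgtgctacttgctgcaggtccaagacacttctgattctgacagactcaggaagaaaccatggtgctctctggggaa
Hbb-bs (chr7:103827879-103828178, - strand): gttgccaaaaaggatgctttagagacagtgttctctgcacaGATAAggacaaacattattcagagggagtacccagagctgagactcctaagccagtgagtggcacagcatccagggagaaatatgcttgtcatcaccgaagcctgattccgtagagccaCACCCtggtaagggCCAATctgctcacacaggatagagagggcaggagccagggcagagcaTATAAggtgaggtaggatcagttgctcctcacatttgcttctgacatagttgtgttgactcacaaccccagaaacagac
Alas2 (chrX:150547167-150547466, + strand): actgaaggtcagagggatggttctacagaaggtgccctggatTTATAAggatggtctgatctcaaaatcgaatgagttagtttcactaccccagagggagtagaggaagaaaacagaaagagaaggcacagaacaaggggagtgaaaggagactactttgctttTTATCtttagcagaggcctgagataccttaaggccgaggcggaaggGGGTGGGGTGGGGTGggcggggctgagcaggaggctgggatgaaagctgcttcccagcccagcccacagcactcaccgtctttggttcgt

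The window of Hba-a1, the other adult alpha-globin gene, matched that of Hba-a2 at 297 of 297 bases once shifted by 3 bases. The windows of Hbb-bs and Hbb-bt, a pair of adult beta-globin genes, shared 168 of 299 bases without gaps. All of these windows, 5 in total, held the GATAA core, and all held the CACCC core. Both globin windows printed above had CCAAT on the gene's own strand, at -91 in Hba-a2 and -76 in Hbb-bs, and TATAA at -30 and -29, counted from the gene start. The Alas2 window had no CCAAT match on either strand, and its TATAA matches, which overlap on opposite strands, lay at -208 and -207. Over 32851 promoter windows of the same length, 25.4% held GATAA, 57.5% CACCC, 37.4% CCAAT and 24.9% TATAA, so that each match is a description of the letters and not a site. The RefSeq promoter table has no entry for Slc4a1, Hbb-b2 or Ahsp. Mice of the C57BL/6 kind carry Hbb-bs and Hbb-bt, other strains Hbb-b1 and Hbb-b2, and the strain here is not given, and which of these mRNAs the probe sets labelled Hbb-b2 measured was not tested.

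No tested red cell or globin probe set passed the threshold, yet all of the tested ones but that of Alas2 had a higher mean in knockout livers. Of the 9 probe sets with a mean log2 value of at least 4 (5 of single genes and 4 with several globin symbols), 8 had a higher mean and 1 a lower mean in knockout livers. Limma called 0 of the 9 at an adjusted p under 0.05, against 0.014% of 14303 probe sets tested. At an unadjusted p under 0.05, 5 of the 9 were higher, against 3.23% of all probe sets, and an ordinary 2-sample test gave 1 of 9 before adjustment and 0 after. The groups did not overlap in 4 of the 9, against 4.26% of all probe sets that were higher without overlap. Several of these probe sets read the same mRNA, so these counts are not of independent transcripts. The genes were also chosen with earlier results of these data known, so the counts beside the shares are a description and not a test. With limma array weights, under which 21% of all genes were called, Slc4a1 (log2 difference 2.14), Hba-a2 (0.78) and Hbb-b2 (0.93) passed the threshold.

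Slc4a1, which exchanges chloride for bicarbonate and anchors the membrane skeleton, had the largest difference of the 4 genes. Its main probe set gave log2 values of 5.95, 7.02 and 6.42 in knockout livers 1 to 3, against 5.36, 4.39 and 5.69 in wild-type livers 1 to 3. Every knockout liver lay above every wild-type liver, by at least 0.26. The means were 6.46 ± 0.53 in knockout and 5.15 ± 0.67 in wild type (SD, n = 3 each), a log2 difference of 1.32 (SE 0.38, 95% interval 0.46 to 2.18, 2.49-fold), with a limma adjusted p of 0.725 over 8343 genes. A second Slc4a1 probe set had values of 6.18, 7.72 and 6.48 in knockout livers, against 4.81, 3.92 and 5.33 in wild-type livers. Again the groups did not overlap, and the log2 difference was 2.11 (SE 0.46, limma adjusted p = 0.488 over all probe sets). The third Slc4a1 probe set lay between 2.43 and 2.74 on all arrays, under the expression filter of 4, with overlapping groups.

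Hba-a2, one of the adult alpha-globin genes, had log2 values of 10.52, 10.21 and 10.10 in knockout livers, against 9.31, 9.37 and 10.16 in wild-type livers. Wild-type liver 3 lay above knockout liver 3, so the groups overlapped, while wild-type livers 1 and 2 lay below all knockout livers. The mean was 10.28 ± 0.22 in knockout and 9.61 ± 0.47 in wild type (SD, n = 3 each). The log2 difference was 0.66 (SE 0.27, 95% interval 0.06 to 1.27, 1.58-fold), with a limma adjusted p of 0.769.

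The 3 probe sets shared by Hba-a1 and Hba-a2, here called sets A, B and C, had the same order of livers in the wild-type group. Set A gave log2 values of 11.92, 11.60 and 11.80 in knockout livers, against 10.46, 9.78 and 11.50 in wild-type livers. Its groups did not overlap, although wild-type liver 3 came within 0.10 of the lowest knockout liver, and the log2 difference was 1.19 (SE 0.38, limma adjusted p = 0.762). Set C gave 9.24, 8.71 and 9.02 in knockout livers, against 7.07, 6.41 and 9.11 in wild-type livers. Here wild-type liver 3 lay among the knockout livers and 2.37 above the mean of the other wild-type livers. The log2 difference of 1.46 (SE 0.58, limma adjusted p = 0.803) was 2.25 without wild-type replicate 3 and then passed the threshold (limma adjusted p = 0.0231). In that setting 38 of 8343 genes were called (0.455%), against 2 with all livers. Those counts are of genes, whereas the p of set C was adjusted over 14303 probe sets. How many probe sets were called in that setting was not counted. With any other liver left out, set C did not pass (limma adjusted p of 0.363 or more). Set B gave 11.05, 10.57 and 11.51 in knockout livers, against 9.86, 9.34 and 11.60 in wild-type livers. Wild-type liver 3 was the highest of the 6 there, and the log2 difference of 0.78 had a 95% interval of -0.41 to 1.97. That difference was 1.44 without wild-type replicate 3 and 0.31 without wild-type replicate 2.

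Hbb-b2, an adult beta-globin gene, had log2 values of 12.03, 12.14 and 12.02 in knockout livers, against 11.90, 10.81 and 11.97 in wild-type livers. The groups did not overlap, but only by 0.048, and wild-type liver 2 stood apart from the other 5. The mean was 12.06 ± 0.07 in knockout and 11.56 ± 0.65 in wild type (SD, n = 3 each), with a log2 difference of 0.50 (SE 0.31, 95% interval -0.20 to 1.20, limma adjusted p = 0.796). Without wild-type replicate 2 the difference was 0.13. The second Hbb-b2 probe set was under the filter, at 3.55, 3.64 and 3.51 in knockout livers, against 3.26, 2.68 and 3.13 in wild-type livers. The probe set that names all of Hbb-b1, Hbb-b2, Hbb-bs and Hbb-bt gave 12.55, 12.15 and 12.79 in knockout livers, against 11.91, 11.63 and 12.77 in wild-type livers. Its groups overlapped, with wild-type liver 3 next to the highest knockout liver, and its log2 difference was 0.39 (SE 0.32, limma adjusted p = 0.825). It was 0.72 without wild-type replicate 3 and 0.16 without wild-type replicate 2.

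Alas2, the erythroid 5-aminolevulinate synthase, did not share this pattern. Its log2 values were 9.54, 9.96 and 10.43 in knockout livers, against 9.92, 10.07 and 10.35 in wild-type livers. The lowest and the highest of the 6 livers were both knockout livers, so the wild-type group lay inside the knockout range. The log2 difference was -0.14 (SE 0.26, 95% interval -0.73 to 0.45, limma adjusted p = 0.919), and the sign turned to 0.08 without knockout replicate 1.

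The remaining single globin genes on the array were the embryonic ones, Hba-x, Hbb-y and Hbb-bh1, and a separate probe set of Hba-a1. These 8 probe sets lay between 1.50 and 3.12 on all 6 arrays, under the filter in every case, so that adult but not embryonic globin signal was measured above it. Their log2 differences had both signs, from -0.25 for Hba-a1 to 0.15 for Hba-x. The groups did not overlap in the Hba-a1 and Hba-x probe sets, and overlapped in all those of Hbb-y and Hbb-bh1. The share without overlap among all probe sets this dim was not counted.

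**Figure D1:**
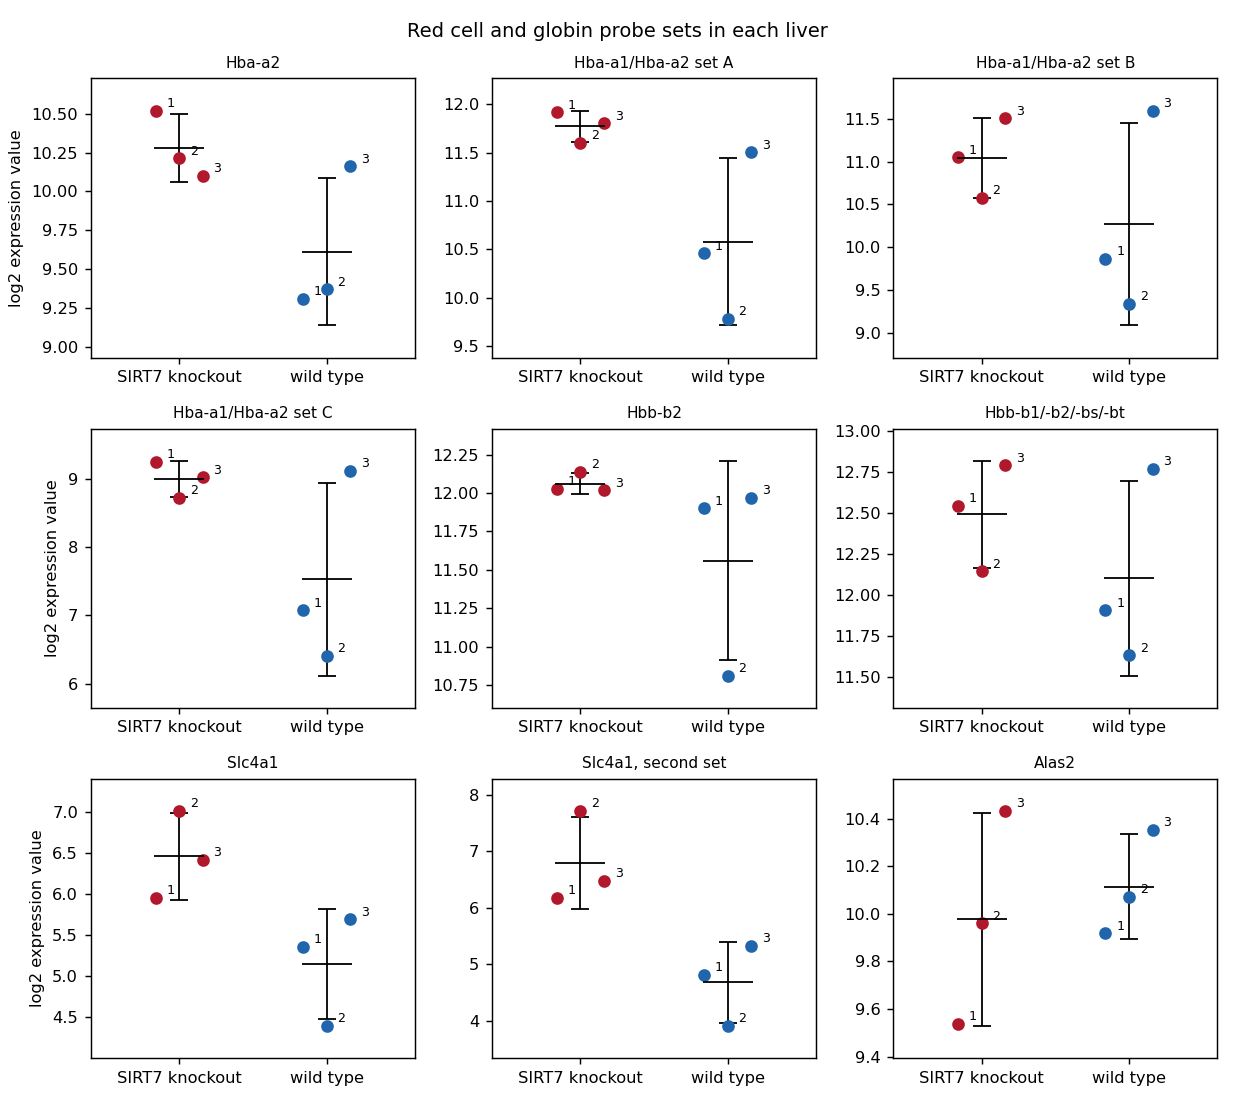
Log2 expression values (vertical axes, each panel on its own scale) of the 9 tested red cell and globin probe sets in SIRT7 knockout (red) and wild-type (blue) livers. Points are livers numbered by replicate, the horizontal bar is the mean and the error bar the SD of 3 livers. In each of the 9 panels the highest wild-type liver is liver 3.

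**Figure D2:**
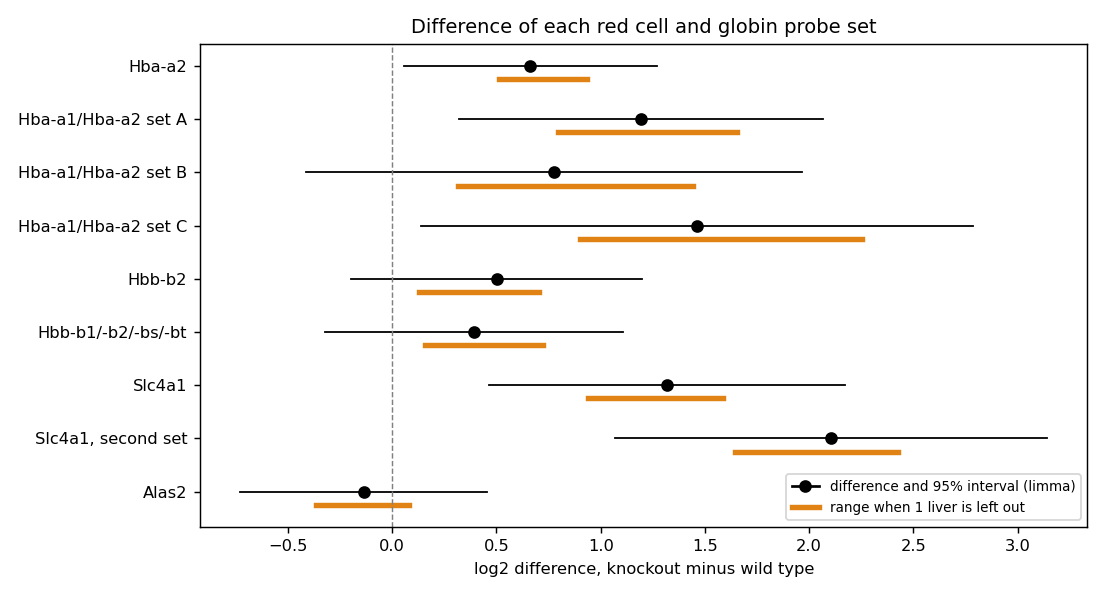
Log2 difference between knockout and wild-type livers (horizontal axis) for the same 9 probe sets. Points and black lines are limma estimates with 95% intervals, and orange bars span the estimates with 1 liver left out. The second Slc4a1 probe set has the largest difference, 2.11, and Alas2 has the only difference below 0, at -0.14.

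Wild-type livers 1 and 2 were the low livers. In all 8 probe sets other than that of Alas2, both of these livers lay below every knockout liver, and wild-type liver 2 was the lowest of the 6 in 7 of the 8. Wild-type liver 3 was the highest of its group in all 9 probe sets and exceeded the lowest knockout liver in 4 of the 8 without Alas2. The share of all probe sets with these orders was not counted, so they are not shown to be particular to red cell genes. Without wild-type replicate 3, 982 of all genes tested had an unadjusted limma p under 0.05, against 539 with all livers. Over the 6 livers, Slc4a1 and Hbb-b2 had the closest relation of the 6 gene pairs compared (Pearson r = 0.853, exact permutation p = 0.00278, adjusted p = 0.0167; Spearman rho = 0.943, exact permutation p = 0.0167, adjusted p = 0.10). Without the 2 livers farthest from the median of Slc4a1 (knockout liver 2 and wild-type liver 2) that r was 0.861 over 4 livers. The other pairs did not pass. The r of Slc4a1 and Hba-a2 was 0.712 (exact permutation p = 0.110, adjusted p = 0.219), with 0.620 without the same 2 livers. The r of Hba-a2 and Hbb-b2 was 0.653 (exact permutation p = 0.101, adjusted p = 0.219). It was 0.070 without the 2 livers farthest from the median of Hba-a2, which were wild-type livers 1 and 2. The 3 pairs with Alas2 had r between -0.153 and 0.032, with exact permutation p-values of 0.80 to 0.956. These relations pool both groups, and the permutations ran across the groups. Slc4a1 and Hbb-b2 each had groups without overlap, so their r and p cannot be told apart from the group difference. The labels give no hybridisation batch, so no relation could be recomputed within batches.

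In 7 of 8 tested markers of cycling cells, as in the globins, wild-type liver 3 was the highest of its group, and in all 8 wild-type livers 1 and 2 lay below every knockout liver. The share of all genes with these orders was not counted. The 9 cell cycle genes with a probe set had a summed linear level of 3690 to 5048 in knockout livers and 1383 to 2981 in wild-type livers, with wild-type liver 3 the highest of its group. In wild-type livers 1 and 2 most of this sum came from 1 gene, Rrm2. Of 8 tested members, 8 were higher in knockout livers and 8 had an unadjusted p under 0.05 in limma, against 45.4% higher and 3.04% higher at that p among all genes tested. This list and those of other cell types below were chosen with earlier results of these data known, so such counts are a description. After adjustment limma called 0 of the 8, and the ordinary test gave 3 before and 0 after adjustment. Ccna2, which encodes cyclin A2, had log2 values of 8.79, 8.75 and 8.49 in knockout livers, against 6.29, 6.14 and 8.09 in wild-type livers, with a limma adjusted p of 0.652. Mki67, which encodes the proliferation antigen Ki-67, had 6.94, 7.64 and 7.33 in knockout livers, against 4.61, 4.17 and 7.06 in wild-type livers. Rrm2, a ribonucleotide reductase subunit, was the exception in order, with 11.16, 10.78 and 10.55 in knockout livers, against 9.795, 10.003 and 9.89 in wild-type livers, where liver 2 was the highest of its group. The part of these genes in the red cell differences was not tested.

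Of the tested markers of other blood cells, 3 of 3 for neutrophils, 5 of 7 for lymphocytes and 2 of 2 for platelets had a higher mean in knockout livers, against 45.4% of all genes tested. So did 4 of 5 Kupffer cell markers, 4 of 5 liver endothelial markers and 3 of 6 hepatocyte markers. A higher mean was therefore not particular to the lists of blood cells. The groups overlapped in each of these genes. The 7 neutrophil markers with a probe set summed to 551 to 1440 in knockout livers and 481 to 822 in wild-type livers. Of these, 3 were tested, and S100a9, a calcium-binding protein of neutrophils, had log2 values of 8.76, 9.99 and 9.95 in knockout livers, against 8.99, 8.42 and 9.23 in wild-type livers. The 8 lymphocyte markers summed to 141 to 490 in knockout livers and 217 to 309 in wild-type livers. The 7 platelet markers, of which 5 were under the filter, summed to 384 to 543 in knockout livers and 318 to 459 in wild-type livers. Most of this sum came from 1 gene, Clec1b (mean log2 value 8.22 in knockout and 7.89 in wild type), which differed by 0.33 (SE 0.24, limma adjusted p = 0.807). The other tested one, Pf4, a platelet chemokine, differed by 0.07 (SE 0.29, limma adjusted p = 0.97). The smallest p among the tested neutrophil, lymphocyte and platelet markers was that of Camp, a neutrophil granule peptide (log2 difference 0.77, SE 0.35, limma adjusted p = 0.773). The 6 hepatocyte markers summed to 35329 to 47379 in knockout livers and 39051 to 44511 in wild-type livers. For these lists too, a part in the red cell differences was not tested.

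**Figure D3:**
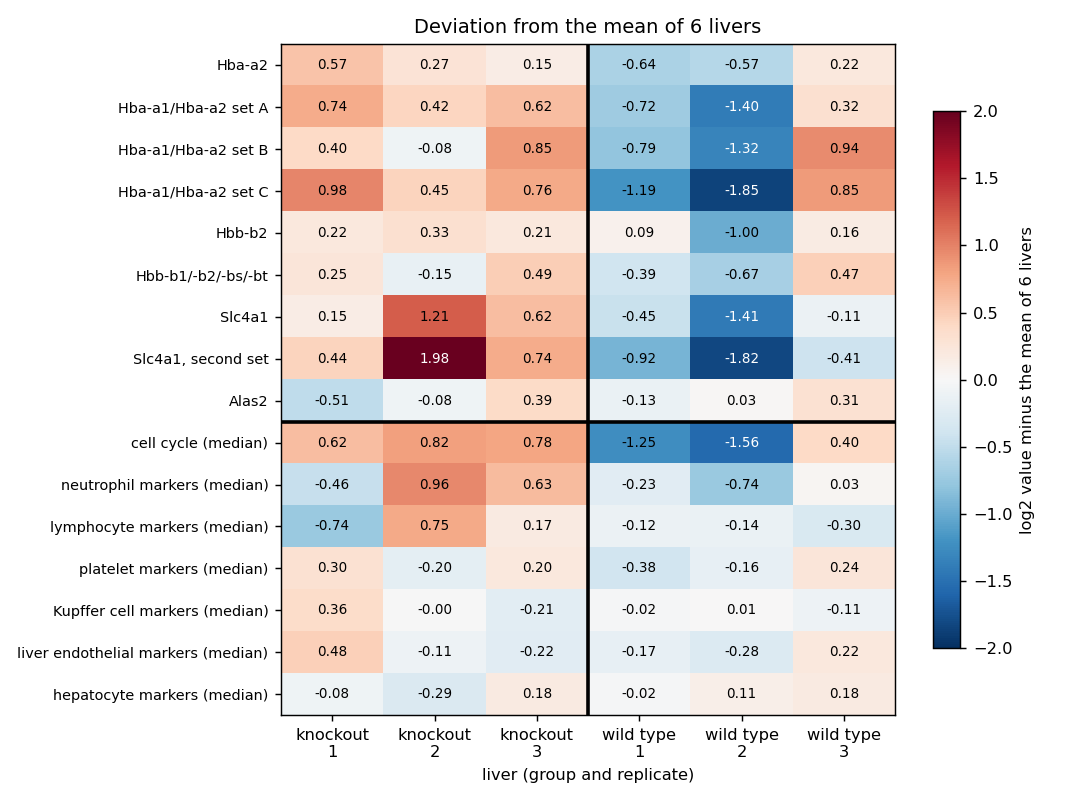
Deviation of each liver from the mean of 6 livers, in log2 units (colour and printed values), for the 9 red cell and globin probe sets above the black line and for the median tested gene of 7 marker lists below it. Columns are knockout livers 1 to 3 and wild-type livers 1 to 3. The cell cycle row, with -1.25 and -1.56 in wild-type livers 1 and 2 and 0.40 in wild-type liver 3, runs like the alpha-globin rows, and the Alas2 row does not.

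Red cell genes as a whole, the 4 chosen genes included, lay on both sides of no difference. Of 73 genes in 5 lists of globins, haem synthesis, red cell membrane, red cell enzymes and erythroid regulators, 60 had a probe set and 36 were tested. The lists were fixed with earlier results of these data known, so the counts below are a description. Limma called 0 of the 36, against 0.024% of all genes tested. At an unadjusted p under 0.05, 5 were higher (3.04% of all genes tested were) and 1 was lower (3.42% of all genes tested were), and the ordinary test gave 3 before and 0 after adjustment. The groups did not overlap in 7 that were higher, against 4.27% of all genes tested, and in 3 that were lower, against 5.48%. Of the 36, 17 were higher and 19 lower, with a median log2 difference of -0.04, beside -0.03 over all genes tested. Without the 4 chosen genes, 14 of 32 tested genes were higher and 18 lower, with 3 higher and 1 lower at an unadjusted p under 0.05 and a median log2 difference of -0.06. The other 24 genes were under the filter, with single values between 1.77 and 4.39. Among them were Gata1, a transcription factor of red cell precursors (2.78, 3.66 and 3.23 in knockout livers, against 3.06, 2.52 and 2.82 in wild-type livers), Ank1, the ankyrin that ties band 3 to the skeleton (2.28 to 3.65 in knockout livers and 2.72 to 2.76 in wild-type livers), and Epor, the erythropoietin receptor, which differed by -0.22. Of the 6 further markers of nucleated red cell precursors that were looked up, 4 had a probe set and 1, Klf1, was above the filter.

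Haem synthesis was tested with 13 genes, of which 5 were higher and 8 lower in knockout livers, with a median log2 difference of -0.12. Abcb10, a mitochondrial transporter needed for haem production in red cell precursors, had the largest difference, with log2 values of 6.04, 8.90 and 7.06 in knockout livers, against 9.07, 9.61 and 9.98 in wild-type livers. Its groups did not overlap, and the log2 difference was -2.22 (SE 0.62, limma adjusted p = 0.725), between -3.01 and -1.57 with 1 liver left out and -0.92 with array weights (limma adjusted p = 0.193). Alad, which makes porphobilinogen, differed by -0.36 (SE 0.23, limma adjusted p = 0.796), by -0.20 without knockout replicate 2 and by -0.70 with array weights, which called it (limma adjusted p = 0.0252). Cpox, which oxidises coproporphyrinogen, differed by 0.39 (SE 0.26, limma adjusted p = 0.796), by 0.21 without knockout replicate 2 and by 0.57 with array weights, which called it too (limma adjusted p = 0.0387). Fech, which inserts iron into the ring, differed by -0.09 on its main probe set and by 0.16 and 0.09 on others. Alas1, the form of the first enzyme found in all tissues, had 8.52, 9.54 and 10.10 in knockout livers, against 7.09, 10.88 and 10.74 in wild-type livers. Hepatocytes make haem as well, so this list is not particular to red cells.

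The red cell membrane list had 5 tested genes, 2 higher and 3 lower. Besides Slc4a1, Aqp1, a water channel that vessel walls also carry, differed by 0.25 (SE 0.26, limma adjusted p = 0.854). Gypc, a glycophorin of the membrane skeleton junction, had 6.27, 6.98 and 7.15 in knockout livers, against 7.35, 7.54 and 7.20 in wild-type livers, a difference of -0.56 (SE 0.26, limma adjusted p = 0.773) that was opposite in sign to that of Slc4a1. It was -0.30 without knockout replicate 1. Red cell enzymes and late maturation genes were higher in 5 of 7 cases, with a median log2 difference of 0.18. Car2, a carbonic anhydrase, had 8.93, 9.39 and 8.95 in knockout livers, against 8.07, 7.77 and 8.74 in wild-type livers, without overlap (difference 0.90, SE 0.28, limma adjusted p = 0.746). Blvrb, the biliverdin reductase B that is abundant in red cells, had 10.26, 10.28 and 10.37 in knockout livers, against 8.61, 9.58 and 10.12 in wild-type livers, also without overlap (difference 0.87, SE 0.35, limma adjusted p = 0.769). The Blvrb difference was 0.45 without wild-type replicate 1 and 1.21 without wild-type replicate 3. Bpgm, which makes the 2,3-bisphosphoglycerate that lowers the oxygen affinity of haemoglobin, differed by 0.61 (SE 0.31, limma adjusted p = 0.775), with overlap. In Car2, Blvrb and Bpgm, as in the globins, wild-type liver 3 was the highest of its group. These 3 were the genes of the list with the smallest p, and the share of all genes with that order was not counted. The other tested genes of the list differed less: Fam210b by 0.18, Prdx2 by 0.09, Ube2o by -0.06 and Car1 by -0.09.

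Erythroid transcription factors and signalling genes had 9 tested members, 3 higher and 6 lower, with a median log2 difference of -0.14. Klf1, the activator that binds CACCC in beta-globin promoters, had 4.65, 5.44 and 6.004 in knockout livers, against 7.07, 6.44 and 5.39 in wild-type livers. Its groups overlapped, and the difference of -0.94 (SE 0.46, limma adjusted p = 0.775) was opposite in sign to those of the globins. Leaving out knockout replicate 1 gave -0.58, wild-type replicate 1 -0.555 and wild-type replicate 3 -1.39, and array weights called it (-1.06, limma adjusted p = 0.0289). Zfpm1, the GATA1 partner FOG1, differed by -0.89 (SE 0.48, limma adjusted p = 0.789), by -0.31 without knockout replicate 1 and by -1.32 without knockout replicate 3. Tfrc, the transferrin receptor that brings iron into precursors and many dividing cells, had 10.60, 10.26 and 10.30 in knockout livers, against 10.07, 9.80 and 9.85 in wild-type livers. The groups did not overlap (difference 0.48, SE 0.19, limma adjusted p = 0.769).

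The genes that clear free haemoglobin and haem were 4 higher and 4 lower of 8 tested, with a median log2 difference of 0.02. Hp, the haemoglobin-binding plasma protein haptoglobin, had 11.72, 11.73 and 11.96 in knockout livers, against 11.89, 12.21 and 12.33 in wild-type livers (difference -0.34, SE 0.20, limma adjusted p = 0.796). Hpx, which binds haem, differed by -0.18 (SE 0.20, limma adjusted p = 0.863), and Cd163, the macrophage receptor for haptoglobin with haemoglobin, by 0.37 (SE 0.29, limma adjusted p = 0.827). Hmox1, the haem oxygenase, differed by 0.21 (SE 0.22, limma adjusted p = 0.856). All of these groups overlapped.

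**Figure D4:**
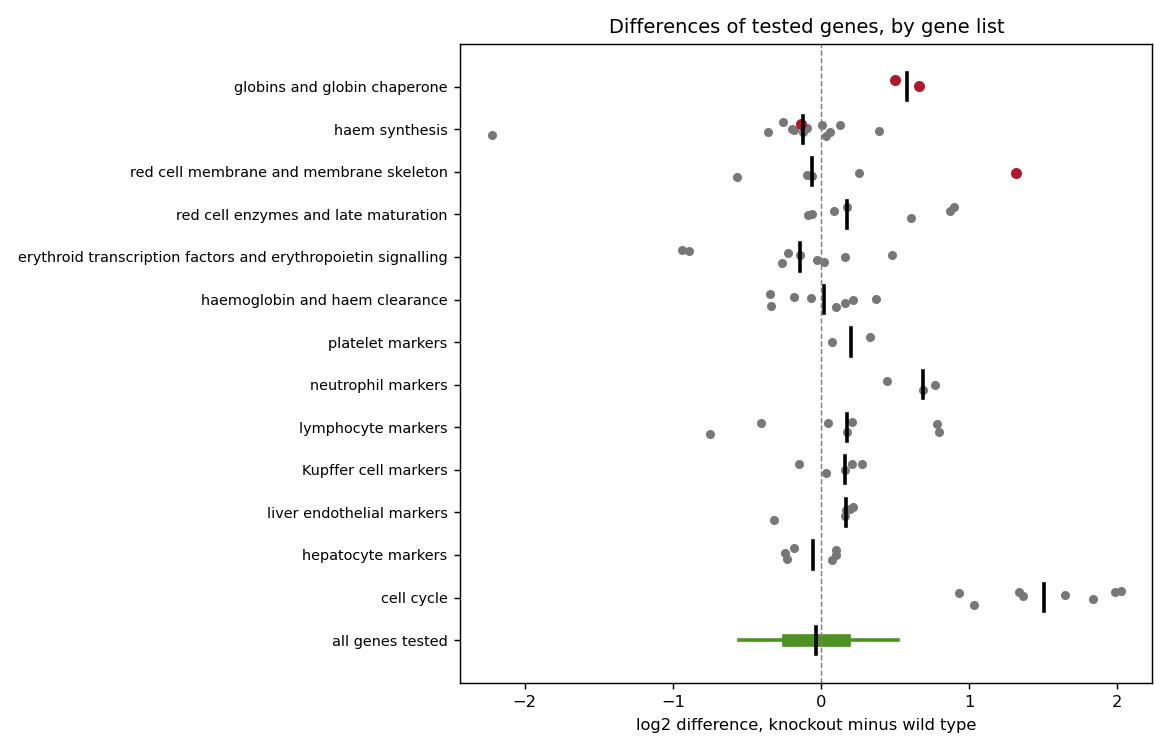
Log2 difference between knockout and wild-type livers (horizontal axis) of each tested gene, by gene list, with the 4 chosen genes in red, other genes in grey and the list median as a black bar. For all 8343 genes tested the thick green bar spans the 25th to the 75th percentile and the thin line the 5th to the 95th. The red points of Slc4a1 (1.32), Hba-a2 (0.66) and Hbb-b2 (0.50) lie right of the green line's centre, and that of Alas2 (-0.14) near it.

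The genes whose profile over the 6 livers was most like the mean of the 4 genes were Pglyrp1 (r = 0.988), a peptidoglycan-binding protein of neutrophil granules, the condensin subunit genes Ncapg (0.987) and Ncaph (0.973), 2700099C18Rik (0.985), Racgap1 (0.981), which acts in cytokinesis, Phf3 (0.980), Mpp1 (0.974), a red cell membrane scaffold protein, and Rxylt1 (0.974). These are Pearson correlations over 6 arrays, picked as the highest among 8339 genes and given as a description. Of those 8339 genes, 92 had an r above 0.9. Mpp1 had log2 values of 9.10, 9.15 and 9.19 in knockout livers, against 8.23, 7.73 and 8.95 in wild-type livers. The difference was 0.84 (SE 0.30, limma adjusted p = 0.76), without overlap between the groups. The mean used for the comparison was 0.11, 0.43 and 0.34 in knockout livers, against -0.28, -0.74 and 0.14 in wild-type livers. A gene picked for its likeness to that mean is higher in knockout livers by selection, so the Mpp1 difference is no further support. Pglyrp1 had 5.42, 6.36 and 6.30 in knockout livers, against 4.87, 3.90 and 5.58 in wild-type livers.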

How the data were processed

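The authors deposited 1 log2 expression value per probe set and array. The submitters' processing notes name GCRMA 2.20.0 and R 2.11.1 and no settings, and the log2 scale was read from the range of 0.841 to 13.969. GCRMA pulls dim probe sets to a common low level, where differences are not proportional to RNA amounts, and the values carry no detection call. Array medians were 5.69 to 5.77, and 0 array pairs were identical. The number of arrays limits the precision.

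Probe sets were named by the platform annotation: 20380 had 1 symbol, 691 several and 1555 none or were not listed. Of several probe sets of a gene, the one with the highest mean over 6 arrays gave its value, and 8343 genes with a mean of at least 4 were tested with limma 3.58.1 under R 4.3.3 (moderated linear model, 2-sided, Benjamini-Hochberg adjustment over all genes or, for probe sets, over all 14303 tested). Values of probe sets under the filter come from the same fit without it. Summed levels add 2 to the power of the log2 values. The fit was tested on simulated data. Members, gene lists and alternatives were chosen with earlier results of these data known. Named genes were the members, every globin probe set, the 3 genes with the smallest p of each list, a fixed set, and the 8 with the most similar profile; not all are printed. Mpp1 and Pglyrp1 values were picked for printing after they were seen. List entries were looked up by symbol and RefSeq synonym. The alternatives were no filter or a stricter one (mean of at least 6), quantile normalization, array weights, a replicate block, an ordinary 2-sample test, the mean of a gene's probe sets, and each liver left out.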

Additional observations from a re-analysis of the deposited data

How the results depend on the processing

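The number of called genes was 2 with limma, 1748 with limma array weights, 0 with the ordinary test (405 at an unadjusted p under 0.05), 1 with the mean of probe sets, and 1 to 38 with 1 liver left out, the 38 without wild-type replicate 3 (0 of them in the red cell lists). Array weights gave knockout replicate 2 a weight of 6.12 against 0.31 to 2.54 for the others. With them 9 of 36 red cell list genes were called, beside 21% of all genes. Of the 9, 7 were higher and 2 lower, Klf1 (-1.06) and Alad (-0.70). The higher ones included Slc4a1 (2.14, limma adjusted p = 0.0113), Hba-a2 (0.78, 0.0184) and Hbb-b2 (0.93, 0.0356). Among probe sets, alpha-globin sets C (1.89, 0.0165) and A (1.49, 0.0129) were called. The share of all probe sets called with array weights was not counted, and the 21% is of genes. With 1 liver left out, Slc4a1 lay between 0.94 and 1.59, Hba-a2 between 0.51 and 0.94, Hbb-b2 between 0.13 and 0.71, Alas2 between -0.37 and 0.082, set C between 0.90 and 2.25 (without wild-type replicate 3), set A between 0.79 and 1.65, and the median of the red cell lists between -0.083 (without knockout replicate 3) and 0.069 (without knockout replicate 1). The sign of Alas2 turned without knockout replicate 1 (0.082), and the r of Slc4a1 and Alas2 was -0.018 under quantile normalization. The r of Alas2 and Hba-a2 was 0.458 without the 2 livers farthest from the median of Alas2, knockout livers 1 and 3. The r of Slc4a1 and Hbb-b2, 0.861 over 4 livers, has too few livers for the threshold. The causes were not tested. The median of the red cell lists was above 0 also with no filter (0.024, with 24 dim genes added), without wild-type replicate 1 (0.037) and without wild-type replicate 2 (0.017). Replicate numbers did not pair the samples (deviations of same-numbered livers correlated at -0.089, -0.091 and -0.194), and with the replicate block the adjusted p was 0.878 for Slc4a1, Hba-a2 and Hbb-b2, with 2 genes called in all. Of 136 alternative values, 116 kept their direction and their side of the threshold or moved within the spread. Most main values did not pass the threshold, so this tally says little about the stability of their size. The Hbb-b2 difference of 0.13, beside 0.50 with all livers, was counted as kept. So was the r of Hba-a2 and Hbb-b2, 0.070 without wild-type livers 1 and 2 beside 0.65.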

Other observations

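Knockout liver 1 differed from the other knockout livers in which red cell and blood transcripts were high. Its alpha-globin value was the highest of the 6 livers on the Hba-a2 probe set (10.52) and on sets A (11.92) and C (9.24). On set B (11.05) it lay below knockout liver 3 (11.51) and wild-type liver 3 (11.60). The Slc4a1 value of knockout liver 1 was the lowest of the knockout group (5.95), and its Alas2 value the lowest of all 6 (9.54). The same liver had the lowest values of Abcb10 (6.04), Klf1 (4.65), Zfpm1 (4.37) and Gypc (6.27). It also had the lowest summed lymphocyte markers of the 6 livers (141, against 282 and 490 in knockout livers 3 and 2). Without it the log2 difference was 1.57 for Slc4a1 and 0.54 for Hba-a2. These livers were compared after their values were seen.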
